A study of Triticum aestivum with 161 samples.

Results

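The subject is a set of 235 probe sets of an Affymetrix wheat array whose signal in developing grain was high in some cultivars and low in others. They were chosen on the arrays of plots given 200 kg of nitrogen per ha (N200). There the group means of each of 6 cultivars were averaged over 5 environments, an environment being a site in a season. A probe set was kept when its highest minus lowest cultivar mean was at least 3 on the log2 scale and its highest cultivar mean was at least 6. Of 61178 probe sets other than the manufacturer's controls, 241 met these limits. Of these, 6 from identifier stems that include a gliadin, a low-molecular-weight glutenin and a serpin were set aside by the rule, which left 235 members from 213 identifier stems. Because N200 signals chose the members, differences between cultivars at N200 are given below as a description, and only the arrays at other nitrogen levels and the effects of environment and nitrogen are tested.

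Bread wheat is a polyploid cereal whose related genomes often carry near-identical copies of a gene, and cultivars differ in which copies they hold and express. A probe set summarises short probes designed on a transcript sequence, so its signal is low in a cultivar where the transcript is scarce and also where the cultivar's transcript differs from the probes in sequence. The array signal does not separate these cases, and the cultivars' sequences were not analysed here.

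Caryopses, the single-seeded fruits of wheat, were taken from tagged heads (10 per plot) 21 days after anthesis, in the middle of grain filling. The cultivars were Cordiale, Hereward, Istabraq, Malacca, Marksman and Xi_19, all grown in field plots in the United Kingdom. Rothamsted was sampled in 2009 and 2010 at 100, 200 and 350 kg of nitrogen per ha (N100, N200 and N350) and in 2011 at N200, and RAGT was sampled at N200 in 2010 and 2011. The 161 arrays, 1 for each plot sample, form 54 groups of cultivar, nitrogen level, site and season, 53 with 3 arrays and 1 (Malacca at N200, Rothamsted 2009) with 2. In all, 89 arrays came from N200 and 72 from N100 and N350. The number of arrays limits the precision. The labels name the plots biological replicates, and every p-value measures the spread among them.

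The arrays carried the profile of grain: 24 of 25 endosperm marker probe sets, chiefly storage proteins, had a mean signal of at least 6, with means up to 14.93. All 12 embryo marker probe sets and 9 of 32 green tissue marker probe sets also had a mean of at least 6. A caryopsis holds all of these tissues, and in such bulk samples fewer cells of a type and less RNA per cell cannot be told apart.

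Over the members, the profile of every one of the 161 arrays resembled that of its own labelled cultivar more than that of any other. For the 89 N200 arrays this follows largely from the rule, and only the 72 arrays at N100 and N350 check their labels in this way. A reading was placed on the high or the low side by the midpoint of the largest gap between the member's ordered cultivar means. Of 37835 readings, 717 (1.90%) lay on the side opposite to their cultivar's, with a median of 3 per array. On 4 arrays at least 10 of the members that are low in the array's cultivar lay above the midpoint, against at most 6 on any other array. The array of plot 1 of Hereward at N200, Rothamsted 2009 had 26 of 115 low members raised. The array of plot 3 of Cordiale at N100, Rothamsted 2010 had 17 of 115, that of plot 1 of Hereward at N200, Rothamsted 2011 had 15 of 115, and that of plot 3 of Malacca at N200, RAGT 2011 had 14 of 113. Together these 4 arrays held 87 of the opposite readings. Without them 239 probe sets met the limits, 234 of them among the 235.

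**Figure D1:**
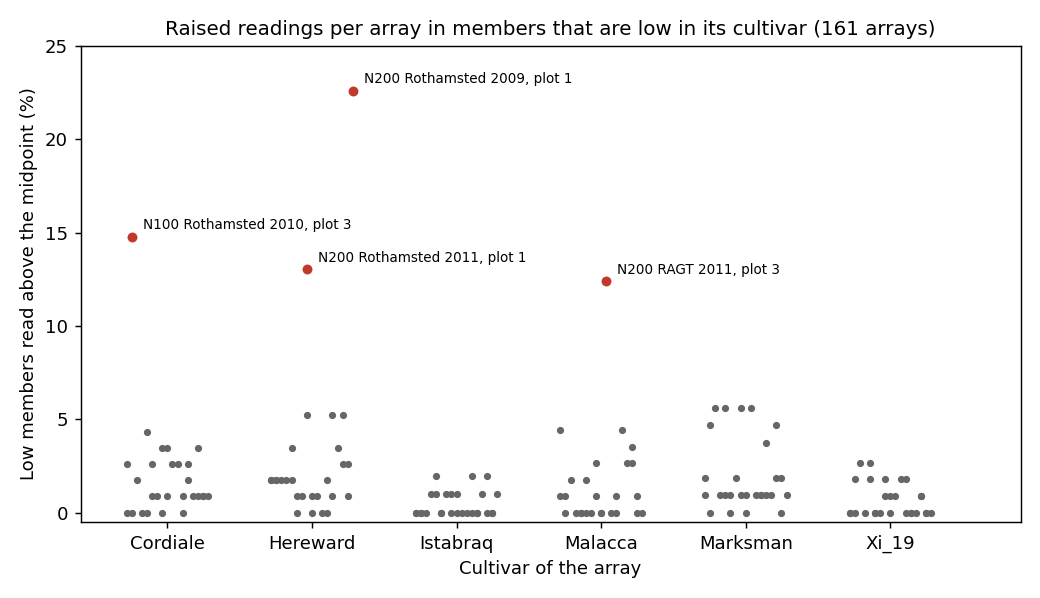
Percentage of the members that are low in an array's cultivar but read above the midpoint between high and low cultivars, by cultivar (1 point per array, 161 arrays, spread sideways for legibility). The 4 red points are the arrays with at least 10 raised members, labelled by nitrogen level, site, season and plot; the highest is plot 1 of Hereward at N200, Rothamsted 2009, with 26 of 115.

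The members fell into many groupings of the cultivars. The cultivars on the high side of the largest gap are called high here and the others low, and the 235 members fell into 47 of the 62 ways in which 6 cultivars can be split. A single cultivar stood against the other 5 in 100 members, being high alone in 42 and low alone in 58. The rest comprised 45 members high in 2 cultivars, 35 high in 3 and 55 high in 4. Of the 20 ways to choose 3 high cultivars, 11 occurred. Each cultivar was high in a similar number of members, between 120 (Cordiale and Hereward) and 134 (Istabraq).

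The range between the highest and lowest cultivar mean at N200 had a median of 4.02 and reached 7.78, against a median of 0.19 over all probe sets. "On or off" describes only some members. The lowest cultivar mean was under 5 in 155 members and under 4 in 85, but it reached 10.96 in another, so a low cultivar could still give a strong signal. In 177 members every cultivar lay within 1 of the highest or the lowest mean, and in the other 58 at least 1 cultivar lay between. The largest gap between neighbouring cultivar means had a median of 3.26.

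**Figure D2:**
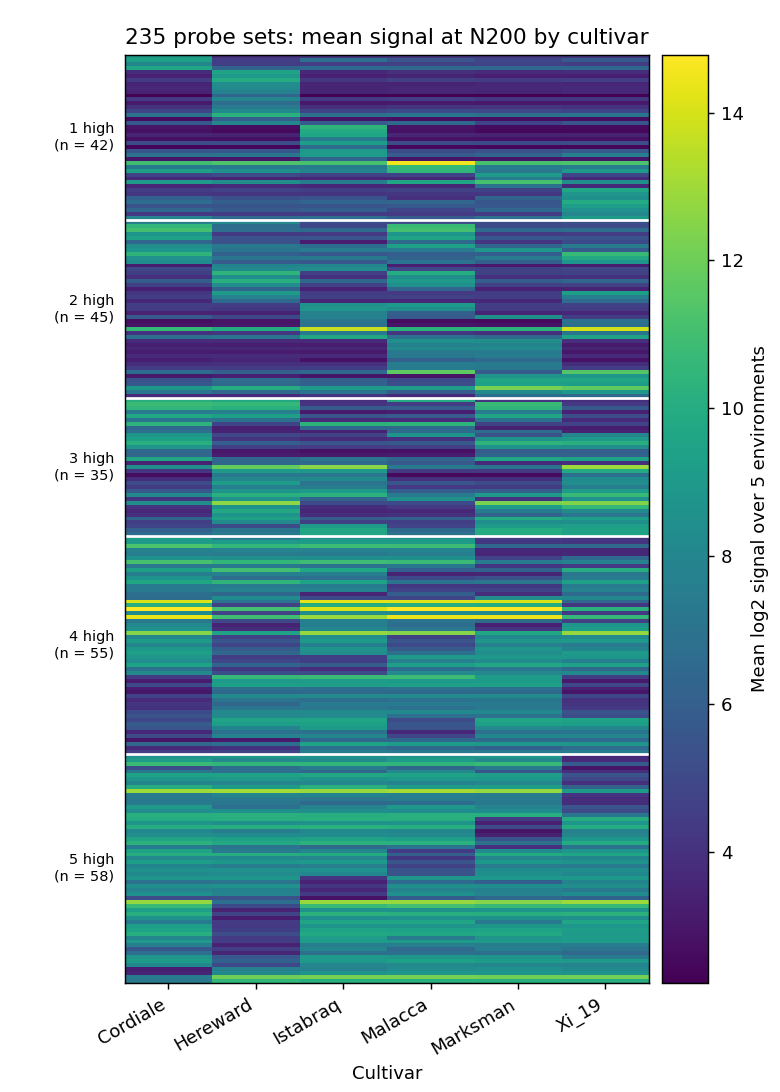
Mean log2 signal at N200 over 5 environments (colour) for the 235 members (lines of the map) in the 6 cultivars (columns). Members are ordered by the number of high cultivars, from 42 that are high in 1 to 58 that are high in 5, and within these by which cultivars are high.

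Cordiale and Malacca lay on the same side in 155 members (66.0%), the most of the 15 pairs of cultivars. Istabraq and Malacca shared a side in 145 and Malacca and Marksman in 141. At the other end, Malacca and Xi_19 shared a side in 92 members (39.1%) and Hereward and Xi_19 in 104. Hereward and Xi_19 also stood alone most often. Hereward was high alone in 14 members and low alone in 17, and Xi_19 was high alone in 8 and low alone in 16. The other cultivars were high alone in 3 to 9 members and low alone in 4 to 8.

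Several members that were high in a single cultivar separated it from the others on every array. In Istabraq, Ta.28263.1.S1_at read 9.90 at the lowest, 10.50 at the median and 10.89 at the highest of 15 N200 arrays, against 2.22, 2.64 and 6.68 over the 74 arrays of the other cultivars. Ta.7259.1.S1_a_at read 9.65, 9.86 and 10.27 in Istabraq, against 2.0, 2.47 and 7.23 in the others. No array of the other cultivars reached an Istabraq array in either member. Ta.22270.1.A1_at was high in Hereward alone, with 8.74, 9.46 and 10.06 on 15 arrays, against 3.25, 3.79 and 7.28 elsewhere. Ta.23203.3.S1_at was likewise high in Hereward alone, at 7.78, 8.94 and 9.96, against 2.58, 3.29 and 6.45. TaAffx.33919.1.S1_at, high in Cordiale alone, read 8.31, 9.24 and 9.75 there, against 3.39, 4.24 and 5.39. These 3 also left a gap between the lowest high array and the highest low array.

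Marksman, Xi_19 and Malacca had their own members too. Ta.8472.1.S1_at read 8.53, 9.06 and 10.03 in Marksman, against 4.20, 4.87 and 7.24 in the others. Ta.22966.3.S1_at read 9.27, 9.56 and 10.17 in Xi_19, against 4.03, 4.61 and 5.61. Ta.28482.1.A1_x_at had the largest range of the members high in Malacca alone, at 14.17, 14.61 and 14.69 on 14 arrays, against 10.09, 11.11 and 13.57 in the others. Both sides of this last member lay far above the lower end of the array's scale. Ta.10109.2.S1_at, high in Xi_19 alone by the rule, showed the limit of such a label: its Xi_19 arrays read 7.31 to 9.26 and the arrays of the other cultivars 2.40 to 8.84, so the groups overlapped.

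Members that were low in 1 cultivar gave the mirror image. Ta.24736.1.S1_at read 10.92, 12.81 and 13.64 over the 74 N200 arrays of the 5 high cultivars, against 3.99, 5.94 and 11.51 on 15 arrays of Hereward, where single plots differed widely. Ta.883.1.S1_at, also low in Hereward alone, read 9.64, 10.72 and 11.63, against 4.44, 4.78 and 6.69 in Hereward, without overlap. Ta.17293.2.S1_at was low in Xi_19 alone, with 8.04, 8.84 and 9.89 in the other cultivars, against 2.96, 3.58 and 4.31 in Xi_19. Ta.8883.2.S1_at was low in Marksman alone, with 9.52, 10.06 and 10.68 in the others, against 3.66, 4.37 and 6.29 in Marksman. In these last 3 members every array of the low cultivar lay below every array of the others.

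In the remaining cultivars the picture was similar. Ta.5390.1.S1_at was low in Cordiale alone, with 11.61, 12.21 and 12.58 in the other cultivars, against 6.65, 7.15 and 8.74 in Cordiale. Ta.22920.1.S1_x_at was low in Istabraq alone, with 8.32, 8.91 and 9.38 in the others, against 3.64, 4.16 and 4.81 in Istabraq. Ta.5878.1.S1_at was low in Malacca alone, with 8.60, 10.17 and 10.93 in the others, against 5.34, 5.98 and 6.69 on the 14 arrays of Malacca. TaAffx.128643.3.S1_at, which had the largest range of those low in Malacca alone, differed from the rest: its high cultivars read anywhere from 3.90 to 11.82, against 3.34 to 5.69 in Malacca, and it is taken up with the environments below.

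**Figure D3:**
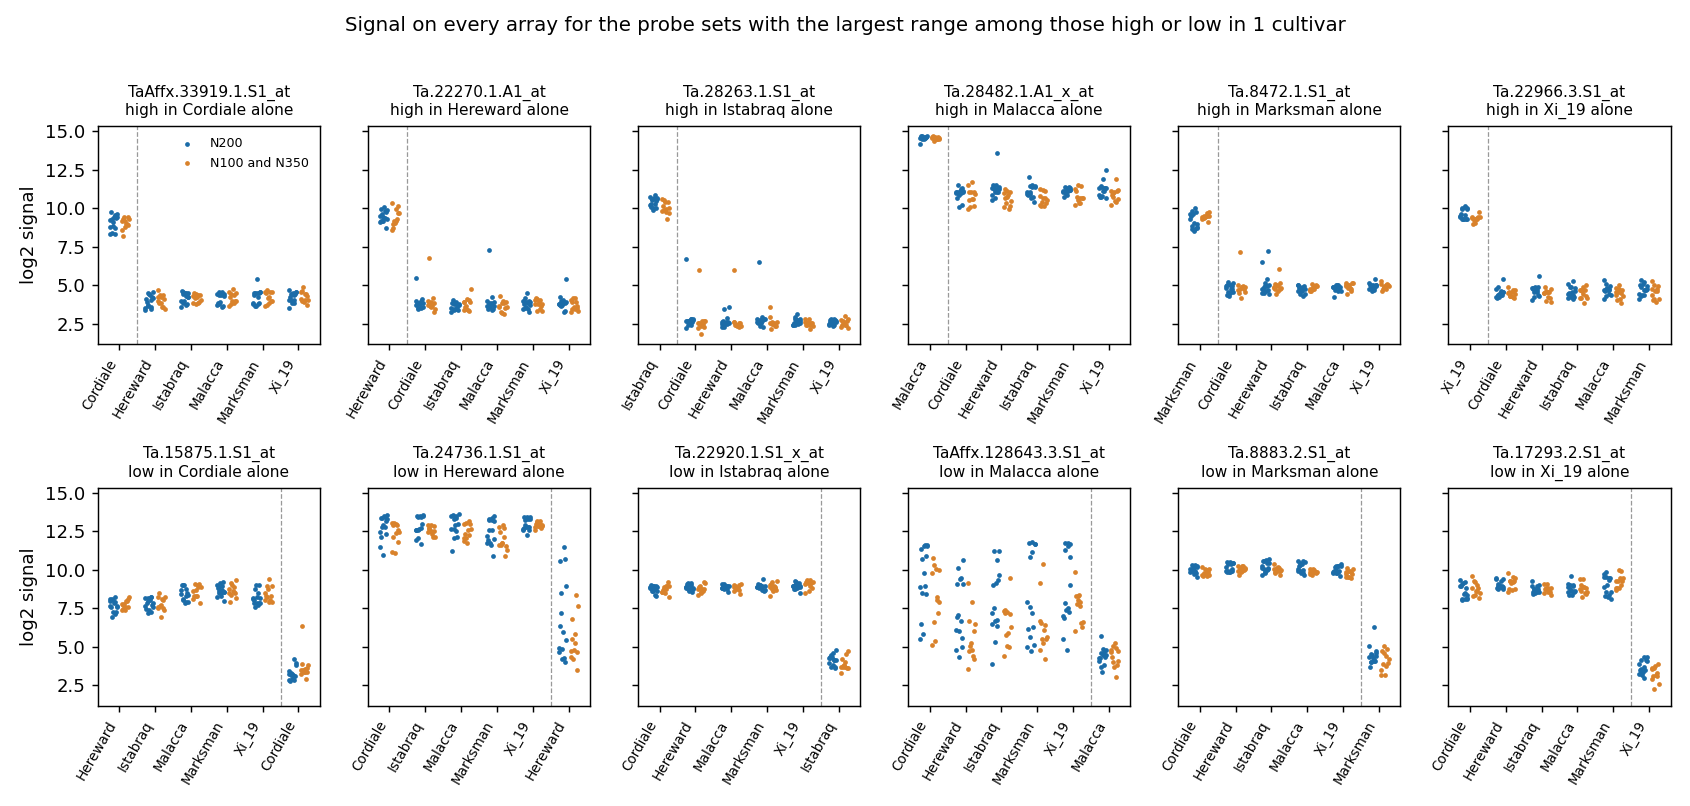
Log2 signal on every array for 12 members, each the one with the largest range among those high (upper panels) or low (lower panels) in a single cultivar; points are arrays, blue at N200 and orange at N100 and N350, and a dashed line separates high cultivars (left) from low ones (right). For Ta.28263.1.S1_at, all Istabraq arrays lie at 9.29 or higher and all others at 6.68 or lower, whereas TaAffx.128643.3.S1_at and Ta.24736.1.S1_at scatter widely.

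Splits that shared members between several cultivars were often as sharp. Ta.13439.1.S1_a_at, high in Cordiale, Istabraq, Malacca and Marksman, read 13.72, 14.19 and 14.39 on their 59 arrays, against 5.09, 5.78 and 13.05 on the 30 arrays of Hereward and Xi_19. The groups did not overlap, although the highest low reading came close to the high ones. TaAffx.113846.1.S1_s_at, high in Cordiale, Hereward and Marksman, read 9.70, 10.78 and 11.31 on 45 arrays, against 3.17, 4.23 and 7.38 on the 44 arrays of Istabraq, Malacca and Xi_19. Ta.1208.1.S1_at, high in Hereward, Marksman and Xi_19, read 10.80, 12.51 and 13.30, against 4.19, 5.26 and 10.92, so the highest low array lay just above the lowest high one. Ta.9397.1.S1_at, high in Hereward and Malacca, read 9.46, 10.20 and 10.96 on 29 arrays, against 4.13, 4.62 and 5.06 on 60. The split held most often outside the 1-against-5 class was low in Cordiale and Xi_19 and high in the other 4 cultivars, with 11 members. Its largest, Ta.28744.1.S1_at, read 8.51, 10.61 and 11.25, against 3.42, 4.28 and 7.14.

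Of the 15 possible pairs of cultivars, 13 were high together without the other 4 in at least 1 member. Malacca and Marksman formed 8 such members, led by Ta.16930.1.S1_at, which read 8.04, 8.56 and 8.78 on 29 N200 arrays of that pair, against 3.20, 3.81 and 5.35 on the 60 arrays of the others. Hereward and Xi_19, the pair that stood alone most, also shared members: TaAffx.29938.1.S1_at read 8.69, 9.26 and 9.63 on 30 arrays, against 3.75, 4.39 and 5.02 on 59. In Cordiale and Malacca, Ta.6179.1.S1_at read 9.33, 10.65 and 11.72, against 3.88, 5.32 and 8.52. The arrays of the pair lay above all others in each of these 3 members. Ta.12949.2.A1_a_at, high in Marksman and Xi_19, read 7.87, 8.88 and 9.48, against 2.18, 2.99 and 6.91. TaAffx.104444.1.S1_at, high in Cordiale and Xi_19, read 9.62, 10.42 and 11.29, against 4.46, 5.84 and 7.42. Neither member had overlapping groups, although the low cultivars spread over several units.

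Some splits were less clean. Ta.4871.1.A1_at led the 8 members high in Hereward, Istabraq and Xi_19, with 10.37, 12.65 and 13.49 on 45 N200 arrays, against 5.61, 7.70 and 10.48 on 44 arrays of Cordiale, Malacca and Marksman. The highest of these low arrays passed the lowest high one. Ta.28411.1.A1_at, low in Hereward and Malacca, read 7.38, 8.14 and 9.02 in the other 4 cultivars, against 3.60, 4.56 and 7.24 in that pair, so the groups nearly touched. Each cultivar was intermediate, lying more than 1 from both the highest and the lowest mean, in 14 (Xi_19) to 21 (Hereward) members.

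Across all members at N200, no array of the low cultivars reached any array of the high ones in 187 of 235. The same arrays chose the members and their sides, which largely fixes this count, and it was not taken over all probe sets. Over all 161 arrays, at every nitrogen level and with the 4 that stood apart included, the spread between plots was wider on the low side. The SD within groups had a median of 0.26 in the high cultivars and 0.36 in the low ones, and it was larger on the high side in 79 of 235 members.

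The first test asked whether the same cultivars differed on the 72 arrays at N100 and N350, which took no part in choosing the members. All 235 members were called for a difference between cultivars there (limma F test, adjusted p under 0.05), against 38.7% of all probe sets. The cultivars that were high at N200 were higher in all 235. Of all probe sets, each taken with its own high and low cultivars from N200, 38.9% were called, 38.7% as higher and 0.165% as lower, a direction that the choice of sides at N200 largely fixes. The difference had a median of 3.73 in the members, with an interquartile range of 3.06 to 4.54 and extremes of 1.30 and 7.88, against a median of 0.09 over all probe sets. A called difference of at least 3 was found in 181 members, against 0.319% of all probe sets. All arrays of the high cultivars lay above all arrays of the low ones in 203 members, against 1.46% of all probe sets. These arrays share the cultivars, the site and the seasons 2009 and 2010 with part of the N200 arrays.

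Of the 1410 combinations of a member and a cultivar, 1403 had a mean at N100 and N350 on the same side as at N200, and in 231 members all 6 cultivars did. Of the 4 arrays that stood apart, only that of plot 3 of Cordiale at N100, Rothamsted 2010 is among these 72. Without it all 235 members were again called for both tests. The largest difference was in Ta.13439.1.S1_a_at, whose high cultivars read 13.29 to 14.36 and whose low cultivars read 5.04 to 10.38, a difference of 7.88 (SE 0.195, adjusted p = 1.43e-39). In Ta.28263.1.S1_at the Istabraq arrays read 9.29 to 10.63 and the others 1.8 to 6.0, a difference of 7.43 (SE 0.189, adjusted p = 5.01e-39). Neither group overlapped the other in these members. Members high in 1 cultivar showed the same on these arrays. Ta.23203.3.S1_at read 8.24 to 9.28 in Hereward, against 2.68 to 3.56 elsewhere, which is a difference of 5.52 (SE 0.0667, adjusted p = 1.02e-54). Ta.22966.3.S1_at read 8.95 to 9.77 in Xi_19, against 3.81 to 5.24, a difference of 4.85 (SE 0.0754, adjusted p = 1.62e-49). Ta.24736.1.S1_at, low in Hereward alone, read 10.93 to 13.19 in the others, against 3.51 to 8.36 in Hereward, a difference of 7.0 (SE 0.190, adjusted p = 1.55e-37). Its groups overlapped at N200 but not here. The smallest difference was in Ta.10068.1.S1_at, at 1.30 (SE 0.399, adjusted p = 0.00731), where 43 of the 72 arrays lay on the opposite side of the midpoint set at N200. Its call was lost without the plots numbered 3 (adjusted p = 0.112), in 2009 alone (0.106) and at N100 alone (0.394).

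**Figure D4:**
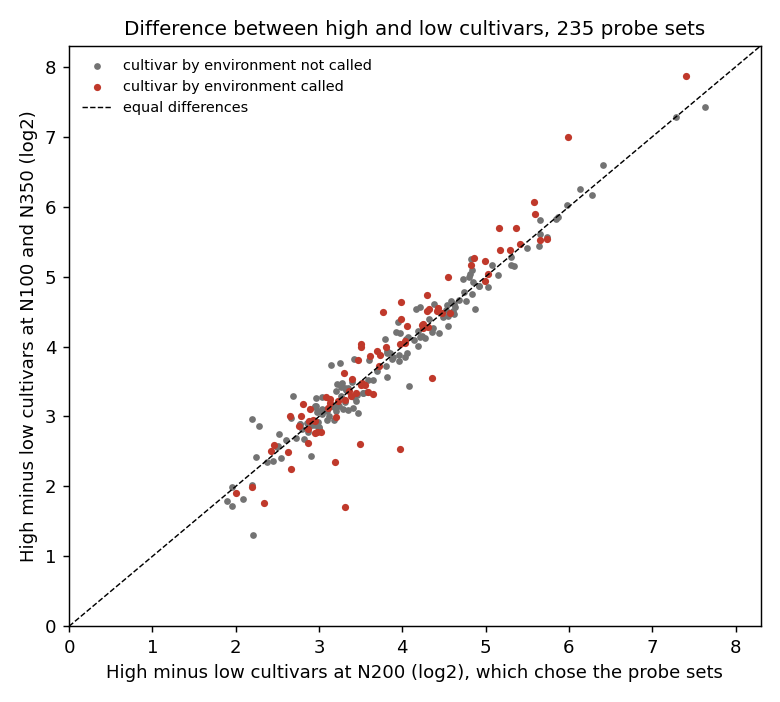
Mean difference between high and low cultivars at N100 and N350 (vertical axis, log2, 72 arrays) against that at N200, which chose the members (horizontal axis, log2, 89 arrays), for the 235 members; red points were called for cultivar by environment. All 235 lie above 0 on the vertical axis, from 1.30 to 7.88, and most lie near the dashed line of equal differences.

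Few members could be tied to a gene. The array's gene table named 5 of them, all by locus symbols without a protein name, and these 5 are given here for that reason, after their values were seen. LOC543418 (Ta.10508.2.S1_a_at) was high in Cordiale, Istabraq, Malacca and Marksman, with 9.51, 10.04 and 10.55 at N200, against 2.42, 4.03 and 8.29 in Hereward and Xi_19. At N100 and N350 it differed by 6.06 (SE 0.163, adjusted p = 9.72e-38). LOC542952 (Ta.10054.1.S1_at) was high in Malacca alone, with 9.72, 10.79 and 11.06, against 6.77, 7.40 and 7.99, and differed by 3.46 (SE 0.0510, adjusted p = 1.15e-50) at N100 and N350. LOC543111 (Ta.22794.1.S1_at) was low in Xi_19 alone, with 8.63, 9.50 and 10.56 in the others, against 5.28, 6.21 and 6.73 in Xi_19. Each of these 3 loci kept its cultivars apart on every array at either nitrogen setting.

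The other 2 loci lie near a glutenin locus that was set aside from the members. LOC543265 (Ta.131.1.S1_at) had N200 means of 14.39 in Cordiale, 14.41 in Malacca, 14.41 in Marksman and 12.91 in Istabraq, against 10.93 in Hereward and 10.59 in Xi_19. Istabraq was intermediate, and 8 of 161 arrays lay on the opposite side of the midpoint. The Glu-D3 probe set Ta.160.2.S1_x_at, for a low-molecular-weight glutenin subunit, had the same split, with 14.07 in Cordiale, 14.04 in Malacca, 14.06 in Marksman and 12.49 in Istabraq, against 10.48 in Hereward and 10.11 in Xi_19. In the RefSeq order of the Chinese Spring assembly (IWGSC CS RefSeq v2.1), 22 protein-coding genes lie between LOC543265 and Glu-D3. LOC780602 (Ta.28514.1.A1_at), with 4 protein-coding genes between it and Glu-D3, had another split: it was low in Malacca alone, with 7.76, 8.3 and 9.32 in the others, against 4.69, 5.44 and 6.84 in Malacca. These 2 loci thus had different sets of high cultivars.

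Genes with known roles in the grain were also looked at by list. Of 17 storage protein probe sets with a gene name, 12 were called for a difference between cultivars at N100 and N350, and 2 passed the limits at N200, both among those set aside (Ta.160.2.S1_x_at and Ta.24114.10.S1_x_at). Of 10 probe sets for grain inhibitors of enzymes, 7 were called and 1 passed (Ta.119.1.S1_x_at, also set aside). Of 8 for defence proteins, 1 was called and none passed. Over all probe sets 38.7% were called and 241 of 61178 passed the limits. Most probe sets of these lists had a mean of at least 6 (16 of 17, 10 of 10 and 7 of 8). Among all probe sets averaging at least 6, 60.5% were called. The F test gives no direction, and the lists are short.

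Members came unevenly from the parts of the array. Identifiers that start with Ta. made up 79.1% of the members and 51.4% of all probe sets, and those that start with TaAffx. made up 20.9% and 48.5%. The suffix _x_at, given to probe sets whose probes may bind several sequences, was as common in the members (11.1%) as in the array (11.1%). Of the 213 stems, 21 held at least 2 members, and in 19 of these the members had the same split. Another 172 probe sets shared a stem with a member without being one, in 81 stems. Of these, 124 (72.1%) were called for a difference between cultivars at N100 and N350, against 38.7% of all probe sets. Their range at N200 was under 1 in 66.3%, against 97.0% of all probe sets, so most probe sets of the same stem did not show a contrast of that size.

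Probe sets of 1 stem could differ in their split. Ta.17293.2.S1_at was low in Xi_19 alone, with a range of 5.36, whereas Ta.17293.3.S1_at was high in Xi_19 alone, with a range of 1.62. Ta.6001.2.S1_at was also low in Xi_19 alone (range 3.37), and Ta.6001.1.S1_at was low in Marksman alone (range 2.83), with the other 4 cultivars high in both. These pairs were chosen after their values were seen.

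Whether the environment mattered was tested at N200 by the interaction of cultivar and environment, which compares how the cultivars differ between the 5 environments. It was called in 85 of 235 members (36.2%), against 6.94% of all probe sets. The test uses the N200 arrays that chose the members, and a member near the limits may have entered through the environments in which it was high. When only probe sets averaging at least 6 were tested, 78 of 161 members were called, against 19.3% of all such probe sets. The call count rests on all plots: 65 members were called without the 4 arrays that stood apart, against 5.57% of all probe sets, and 24 to 40 when the plots of any 1 number were left out, against 0.513% to 4.50% of all probe sets. The size of the change was small for most. The difference between high and low cultivars varied between environments by a median of 0.78, by under 0.5 in 45 members and by at least 1 in 78. Of the 85 called, 53 varied by at least 1 and 14 by at least 2.

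The sides and the limit on the range were set on the average of these same 5 environments, which largely fixes the sign in each, so the values by environment are a description. High minus low was at least 1 in every environment in 232 members and at least 2 in 212. Of the 1175 values for a member and an environment, 4 were under 1, and all were positive, the smallest being 0.60. The medians over members were 3.46 at Rothamsted in 2009, 3.86 at Rothamsted in 2010, 3.73 at RAGT in 2010, 3.59 at Rothamsted in 2011 and 3.77 at RAGT in 2011.

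The largest change was in Ta.3873.1.S1_at, which at N200 was high in Hereward and nowhere else, and in Hereward only in some environments. Its Hereward mean of 6.04 was the lowest highest mean of any member, and it met the limit of 6 only through its values of 2011, so its change with environment and season is given with no test. Its Hereward plots read 3.26, 2.60 and 4.43 at Rothamsted in 2009, 3.30, 3.25 and 3.32 at Rothamsted in 2010, and 5.30, 4.96 and 5.74 at RAGT in 2010. They read 9.14, 9.26 and 9.41 at Rothamsted in 2011 and 8.83, 8.96 and 8.81 at RAGT in 2011. The 74 arrays of the other cultivars stayed between 2.29 and 3.33 throughout. Every Hereward plot from RAGT and from 2011 lay above that range, and all but 1 of the earlier Rothamsted plots lay inside it. The differences were 0.80, 0.60, 2.71, 6.44 and 6.0 in the same order. At N100 and N350 in 2009 and 2010 Hereward was higher by 1.71 (SE 0.296, adjusted p = 4.03e-06), with readings from 2.72 to 9.20 in Hereward, against 2.27 to 3.27 in the others. At least 1 Hereward plot at Rothamsted in these seasons thus read as high as the N200 plots of 2011. The pattern by environment seen at N200 therefore did not describe every plot at N100 and N350.

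In 3 further members the low cultivars stayed low in every environment while high cultivars changed. TaAffx.128643.3.S1_at stayed between 3.34 and 5.69 in Malacca. In Xi_19 its group means were 6.89 at Rothamsted in 2009, 6.72 at Rothamsted in 2010, 7.45 at RAGT in 2010, 11.23 at Rothamsted in 2011 and 11.73 at RAGT in 2011, and in Marksman they were 5.34, 5.66, 7.56, 11.24 and 11.75. High minus low was 2.07, 1.95, 3.57, 6.10 and 6.19 (interaction adjusted p = 0.00169). The gap to Malacca was therefore widest in 2011 at both sites.

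TaAffx.106825.1.S1_at was low in Xi_19, where it stayed between 3.68 and 4.75. Marksman, a high cultivar, had group means of 5.37, 3.99, 9.10, 9.65 and 9.55 in the same order of environments, so at Rothamsted in 2010 Marksman read as low as Xi_19. High minus low was 2.83, 1.10, 4.0, 5.08 and 4.47 (interaction adjusted p = 0.000925). Ta.11022.1.S1_a_at was low in Marksman and Xi_19, with N200 readings of 6.12 to 8.41. Its Malacca means were 11.35, 8.04, 10.21, 12.21 and 12.40, and high minus low was 4.25, 2.31, 4.24, 5.66 and 5.33 (interaction adjusted p = 9.00e-05). In both members Rothamsted in 2010 gave the smallest contrast and 2011 the largest.

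Ta.9140.1.A1_at went the opposite way over the seasons. It was low in Marksman, at 4.53 to 6.77. Its Istabraq means were 9.89 at Rothamsted in 2009, 10.97 at Rothamsted in 2010, 10.48 at RAGT in 2010, 7.23 at Rothamsted in 2011 and 8.63 at RAGT in 2011. High minus low was 4.23, 5.66, 4.97, 1.98 and 2.03 (interaction adjusted p = 0.00111), and in 2011 the plots of Xi_19, at 6.80 to 7.13, came near the highest Marksman plot, at 6.77.

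In Ta.24736.1.S1_at the low side moved instead. The Hereward plots read 10.74, 4.22 and 10.57 at Rothamsted in 2009 and 11.51, 8.5 and 8.97 at Rothamsted in 2011, against 3.99 to 7.18 in the other environments. The 5 high cultivars had group means of 11.48 or more in every environment. High minus low was 4.07, 7.40, 7.19, 3.71 and 7.56 (interaction adjusted p = 0.000360). Of the raised Hereward plots, 2 are among the 4 arrays that stood apart, and without these arrays the adjusted p was 0.111. With plots of a single number left out it was 0.688 without number 1 and 0.230 without number 3. For TaAffx.128643.3.S1_at, TaAffx.106825.1.S1_at, Ta.9140.1.A1_at and Ta.11022.1.S1_a_at the call was lost without the plots numbered 2 and without those numbered 3, with adjusted p between 0.0922 and 0.788.

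**Figure D5:**
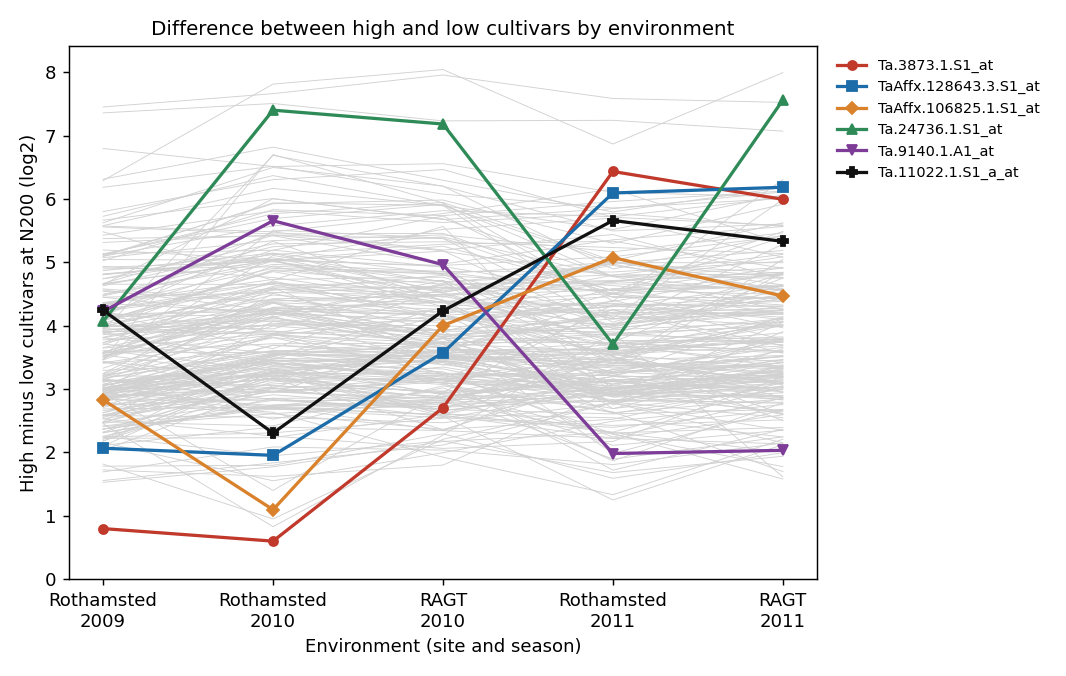
High minus low cultivars at N200 (log2) in each of the 5 environments for all 235 members (grey lines) and for the 6 called members whose difference varied most (coloured lines with markers). Ta.3873.1.S1_at lies at 0.80 and 0.60 at Rothamsted in 2009 and 2010 and at 6.44 and 6.0 in 2011, while most grey lines are nearly level.

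Season was also compared within the high cultivars alone, relative to the median change of all probe sets, which itself shifted by -0.15 in 2010 against 2009 and by 0.32 in 2011 against 2010. In 2010 against 2009 at Rothamsted (N200), 106 members were called, against 38.4% of all probe sets. Of these, 94 were higher in 2010, against 19.9% of all probe sets, and 12 were lower, against 18.5%. With all arrays quantile normalized again 75 were called, 54 of them higher, against 34.7% of all probe sets called. In 2011 against 2010, at both sites, 158 were called, against 64.3% of all probe sets, with 84 higher (31.2% of all probe sets) and 74 lower (33.0%). The shares for 2011 were near the background. For 2010 the share of members called was above it in the deposited values (45.1%) but not after that normalization, nor without the plots numbered 1 (62 members, against 29.7% of all probe sets). It was not above it among probe sets averaging at least 6 either (54 of 161 members, against 34.5%). Whether arrays of different seasons were normalized together is not known here, and every season contrast carries that doubt. These contrasts, too, use the N200 arrays that chose the members. Of the 158 changes in 2011, 36 were of at least 1, and of the 106 in 2010, 13 were.

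Some members changed with season as much as between cultivars. Ta.10068.1.S1_at, high in Cordiale, Hereward, Istabraq and Xi_19 by the rule, was higher in 2011 than in 2010 by 6.53 (SE 0.40, adjusted p = 7.05e-30). In 2010 against 2009 it fell by 2.54 (SE 0.566, adjusted p = 0.000129). These p-values come from the N200 arrays that admitted this member and set its high side, and they do not allow for that choice. Its Cordiale means at Rothamsted were 8.78 in 2009, 3.90 in 2010 and 11.95 in 2011, and in Malacca, a low cultivar, they were 4.53, 2.57 and 6.70. High and low cultivars moved in the same direction, with an SD of 3.94 between the Cordiale plots of 2009. The interaction was not called (adjusted p = 0.30), and 82 of 161 arrays lay on the side opposite to their cultivar's.

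Other members fell or rose with season in their high cultivars, and the same limit holds for their p-values. TaAffx.128643.3.S1_at was higher in 2011 than in 2010 by 3.83 (SE 0.269, adjusted p = 1.61e-25). Ta.23322.3.S1_at, high in Cordiale, Malacca, Marksman and Xi_19, fell by 3.06 (SE 0.150, adjusted p = 1.13e-37) between these seasons, after a rise of 1.61 in 2010 against 2009 (SE 0.219, adjusted p = 1.13e-09). Its Marksman means at Rothamsted were 8.33 in 2009, 9.15 in 2010 and 5.43 in 2011, and those of Istabraq, a low cultivar, were 3.61, 4.66 and 3.26. Ta.9140.1.A1_at fell by 2.92 (SE 0.217, adjusted p = 8.15e-24) and Ta.6019.1.S1_at by 2.06 (SE 0.157, adjusted p = 3.89e-23) in 2011 against 2010. Ta.6179.1.S1_at, high in Cordiale and Malacca, rose by 1.54 in 2010 against 2009 (SE 0.234, adjusted p = 3.43e-08) and kept its cultivars apart in every array.

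Tissue markers and control probe sets were also compared between these environments. The summed signal of the 12 embryo marker probe sets (log2) had medians of 14.19 at Rothamsted in 2009, 14.72 at Rothamsted in 2010, 13.78 at RAGT in 2010, 13.20 at Rothamsted in 2011 and 13.27 at RAGT in 2011. In Rothamsted 2010 the embryo sum ran from 13.55 to 15.37 over arrays and in Rothamsted 2011 from 12.47 to 13.46. The sum of the 32 green tissue marker probe sets had medians of 15.70, 15.66, 15.80, 15.97 and 15.95 in the same order. The difference between 3′ and 5′ probe sets of actin had medians of 0.144, 0.108, 0.318, 0.433 and 0.525. Those of GAPDH had medians of -3.07, -2.79, -2.77, -2.57 and -2.51. Those of EF-1a had -0.385, -0.515, -0.653, -0.373 and -0.395, without the order seen for actin. Their part in the seasonal results was not tested.

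Fewer members were called between sites than between seasons. RAGT against Rothamsted, over 2010 and 2011 at N200 in the high cultivars, was called in 26 members, against 5.37% of all probe sets. Of these, 17 were higher at RAGT (2.71% of all probe sets) and 9 were lower (2.67%). Among probe sets averaging at least 6, 23 of 161 members were called, against 13.4% of all such probe sets, so the share was near the background there. This contrast, too, uses the N200 arrays that chose the members. TaAffx.106825.1.S1_at was higher at RAGT by 1.42 (SE 0.243, adjusted p = 1.98e-05) and Ta.11022.1.S1_a_at by 1.07 (SE 0.199, adjusted p = 8.94e-05). Both rested on 2010: in 2011 alone they differed by -0.17 (adjusted p = 0.906) and 0.15 (adjusted p = 0.899). Ta.23203.3.S1_x_at, high in Hereward alone, was higher at RAGT by 0.65 (SE 0.151, adjusted p = 0.00255). RAGT minus Rothamsted was -0.85 in Ta.23322.3.S1_at (SE 0.150, adjusted p = 3.21e-05), -0.72 in Ta.14946.1.S1_at (SE 0.199, adjusted p = 0.0147) and -0.63 in Ta.9089.1.A1_at (SE 0.142, adjusted p = 0.00168). The calls of TaAffx.106825.1.S1_at and Ta.23322.3.S1_at held when the plots of any 1 number were left out, and those of the other 4 were lost at least once (adjusted p between 0.0596 and 0.425).

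The nitrogen effect in the high cultivars was called about as often in members as in all probe sets. N350 against N100 at Rothamsted in 2009 and 2010 was called in 22 members (9.36%), against 9.96% of all probe sets. Of these, 6 were higher at N350 (4.75% of all probe sets) and 16 lower (5.22%), and 3 changed by at least 0.5. With all arrays quantile normalized again 15 were called, 9 of them higher, against 8.95% of all probe sets called. In Ta.23322.3.S1_at N350 exceeded N100 by 0.78 (SE 0.150, adjusted p = 8.47e-05). Its Marksman plots at Rothamsted in 2010 read 10.09, 9.39 and 9.62 at N350, against 8.46, 8.24 and 8.27 at N100, whereas in 2009 they read 8.41, 6.51 and 6.78 at N350, against 6.70, 7.77 and 7.48 at N100. The plots were thus apart in 2010 and overlapped in 2009. Ta.21264.1.S1_x_at was higher at N350 by 0.42 (SE 0.125, adjusted p = 0.0170) and Ta.22094.1.S1_at by 0.32 (SE 0.0969, adjusted p = 0.0210). Ta.21289.1.S1_at fell by 0.57 (SE 0.161, adjusted p = 0.0120), Ta.22978.1.S1_x_at by 0.55 (SE 0.168, adjusted p = 0.0202) and Ta.10028.1.S1_s_at by 0.44 (SE 0.151, adjusted p = 0.0486). Of the 6 named here, Ta.23322.3.S1_at kept its call when the plots of any 1 number were left out and the others lost it at least once.

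A difference between cultivars in the nitrogen effect was called in 1 member, Ta.10028.1.S1_at (adjusted p = 0.0343), against 0.0212% of all probe sets. In Malacca its means were 5.59 at N350, against 7.98 at N100 in 2009, and 5.41 at N350, against 6.30 at N100 in 2010. In Istabraq they were 7.89 at N350, against 6.90 at N100 in 2009, and 7.28 at N350, against 7.29 at N100 in 2010. In Xi_19 they were 8.71 at N350, against 8.99 at N100 in 2009, and 9.03 at N350, against 9.06 at N100 in 2010. Malacca was thus lower at N350 in both seasons, with an SD of 1.78 and 1.03 between its plots at N350. The adjusted p was 0.0554 with an intensity trend and robust fit, and 0.983 without the plots numbered 2. Ta.10028.1.S1_s_at, a member of the same stem with the same split, was not called.

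The limit on the range passes through a continuous distribution. Just inside were Ta.21289.1.S1_at with a range of 3.003, TaAffx.84711.1.S1_at with 3.007 and TaAffx.111174.1.S1_at with 3.013. Just outside were TaAffx.92729.1.A1_at with 2.999, TaAffx.56982.4.S1_at with 2.982 and Ta.21472.1.S1_at with 2.979. The limit of 3 kept 0.384% of the probe sets, a limit of 2 would have kept 0.829% and a limit of 4 would have kept 0.195%.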

How the data were processed

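Each plot sample gave total RNA of caryopses for 1 Affymetrix wheat array. The authors deposited log2 signals per probe set, made with RMA per the submitters' processing notes (background correction, quantile normalization and summary of probes); the software and the sets of arrays run jointly were not given in the sources used here. Deposited log2 values ran from 1.59 to 15.06. Of 61288 probe sets, 110 controls were left out, and no other filter was applied. Raw array files and single probes were not used here.

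Groups came from the labels. limma 3.58.1 in R 4.3.3 fitted a mean per group, once to the 72 arrays at N100 and N350 (24 groups, 48 residual degrees of freedom) and once to all 161 (54 groups, 107). Tests were two-sided, p-values were adjusted by Benjamini and Hochberg over 61178 probe sets, and probe sets were called at an adjusted p under 0.05. Season contrasts were centred by removing the median over all probe sets (-0.15 for 2010 minus 2009 and 0.32 for 2011 minus 2010).

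The members and all lists were chosen with earlier results of these data known. Named probe sets follow a rule: per cultivar, the 3 with the largest range among those high or low alone; the largest of each split with at least 3 members; the 6 called members that varied most between environments; the 3 largest called changes in each direction; and 3 on either side of the range limit. The text gives values for some of these, and exceptions are stated. Scripts were tested on simulated data. No sequence is printed, as none was available for the members. Alternatives were re-normalization, centred medians, filters, array weights, an intensity trend, a replicate block, single seasons or nitrogen levels, and plots left out; leaving out 4 arrays was chosen after seeing the data.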

Additional observations from a re-analysis of the deposited data

Results flagged for a closer look

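Differences between high and low cultivars that changed with the environment were tested by the interaction of cultivar and environment at N200, which was called in 85 members. The 6 called members that varied most between the 5 environments are repeated here with their spread, the largest minus the smallest high-minus-low difference. They were chosen on the same N200 arrays, and Ta.3873.1.S1_at met the limits only through its values of 2011. The spread was 5.84 in Ta.3873.1.S1_at, 4.23 in TaAffx.128643.3.S1_at, 3.98 in TaAffx.106825.1.S1_at, 3.85 in Ta.24736.1.S1_at, 3.68 in Ta.9140.1.A1_at and 3.36 in Ta.11022.1.S1_a_at. The change of Ta.3873.1.S1_at is therefore given with no test. Without the 4 arrays that stood apart, TaAffx.128643.3.S1_at, TaAffx.106825.1.S1_at, Ta.9140.1.A1_at and Ta.11022.1.S1_a_at kept their call and Ta.24736.1.S1_at did not (adjusted p = 0.111). A difference between cultivars in the nitrogen effect was called in 1 member, Ta.10028.1.S1_at, and not in Ta.10028.1.S1_s_at of the same stem.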

How the results depend on the processing

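The limits kept 0.384% of probe sets as members, 0.829% with a range of at least 2 and 0.195% with a range of at least 4; with plots of 1 number left out the share was 0.379% to 0.387%, and the other settings gave 0.273% to 0.407%. Calls for cultivar at N100 and N350, and for high minus low there, stayed at 233 to 235 members under every setting that kept all members, and 234 to 235 with the plots of 1 number left out; a mean of at least 6 left 158 members to test, all called. Cultivar by environment was called in 85 members, 24 to 40 with plots of 1 number left out (0.513% to 4.50% of all probe sets), and 183 with array weights, where 54% of all probe sets were called. RAGT minus Rothamsted was called in 26 members, 11 to 19 with plots left out (1.29% to 3.98% of all probe sets) and 53 with array weights (16.1%). In 2010 alone 41 members were called (13.3%) and in 2011 alone 15 (3.42%), where TaAffx.106825.1.S1_at turned to -0.168. Season 2010 minus 2009 was called in 106 members, 62 to 105 with plots left out (26.4% to 32.5% of all probe sets), and 54 of the 161 with a mean of at least 6; season 2011 minus 2010 was called in 158 members and, under alternatives with all members, in 137 to 173 (114 of the 161). N350 minus N100 was called in 22 members, 5 to 24 with plots left out (2.40% to 8.91% of all probe sets) and 36 over all 6 cultivars (23.0%). By limma 0 members were called in 2009 alone (0.52% of all probe sets). There 22 members had an unadjusted p under 0.05, against 11.3% of all probe sets. Cultivar by nitrogen was called in 1 member (0.0212% of all probe sets), 0 to 19 with plots left out (0% to 1.65%) and 7 with array weights (0.368%). An intensity trend and robust limma fit called 0 members (0.018% of all probe sets). There 32 members had an unadjusted p under 0.05, against 6.34% of all probe sets. Where plots numbered 2 and 3 were left out, 21 and 18 members did, against 4.85% and 4.93%. Leaving out plots reduces the samples; the cause of the other changes was not tested.

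No label says that a plot number marks a shared block, so plot numbers were not used as pairs in the main fits. The lowest correlation of deviations between arrays of the same number was -0.73 to -0.32 in the 5 environments. As the lowest of many pairs, it cannot decide whether a block was shared. Mean correlations were still higher for the same number than for different numbers (0.162 against -0.079, 0.108 against -0.054, 0.054 against -0.026, 0.132 against -0.067 and 0.008 against -0.004). Of the arrays, 39 of 53, 31 of 54, 13 of 18, 12 of 18 and 5 of 18 correlated best with their own number, a hint of a number effect from the data. With the replicate block 101 members were called for cultivar by environment (10.2% of all probe sets) and 26 for site (6.45%). The seasons had 107 and 160 called (39.6% and 64.9%), and nitrogen had 27 (11.1%). Cultivar by nitrogen had 1 (0.0392%), and each test at N100 and N350 had 235 (41.3% and 40.3%). Signal near the lower end of the array's scale limits what a low reading can show.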

Other observations

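The 4 arrays that stood apart were compared with the other cultivars. For each, the rise of a low member above the median of its cultivar's arrays was taken separately for members high and low in another cultivar. On the array of plot 3 of Cordiale at N100, Rothamsted 2010, 15 of the 17 raised members were high in Marksman, and the median rise was 1.42 in the 52 low members that are high in Marksman, against 0.01 in the 63 that are low in Marksman. On the array of plot 1 of Hereward at N200, Rothamsted 2009, 23 of the 26 raised members were high in Xi_19, and the median rise was 0.96 in the 67 low members that are high in Xi_19, against 0.10 in the 48 that are low in it. That array also rose in members high in Istabraq (median 0.94 against 0.11) and in Marksman (0.84 against 0.08). On the array of plot 1 of Hereward at N200, Rothamsted 2011, the median rise was 0.60 in members high in Marksman, against 0.28 in members low in it. The rise was also larger in members high in Istabraq (0.57 against 0.30), Malacca (0.50 against 0.30) and Cordiale (0.53 against 0.41), but not Xi_19 (0.35 against 0.46). On the array of plot 3 of Malacca at N200, RAGT 2011, the median rise was 1.13 in members high in Istabraq, against 0.50 in members low in it. Members high in Cordiale also rose more (0.93 against 0.56). It went the other way for Xi_19 (0.66 against 1.06), Hereward (0.70 against 0.92) and Marksman (0.81 against 0.90). Of the 14 raised members, 8 were high in Istabraq and 8 in Xi_19. These are values of single arrays with no test.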
